A study of Homo sapiens with 12 samples.

Results

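The genes that mark and drive the switch between epithelial and mesenchymal states were followed in human prostate cancer cells in which FOXA1 had been lowered by siRNA. The set held 10 genes of the 60106 in the deposited count tables, taken by gene symbol: CDH1, CDH2, VIM, FN1, SNAI1, SNAI2, TWIST1, ZEB1, ZEB2 and OVOL1. All 10 symbols matched 1 row in each of 12 RNA sequencing libraries. PC3 and VCaP are established lines grown from metastases of prostate cancer. PC3 cells, kept in RPMI, received 20 nM of a non-targeting siRNA (NSI) or of an siRNA against FOXA1 (siFOXA1), and VCaP cells, kept in DMEM, received 40 nM of either. RNA was taken after 72 hours from 3 replicates in each of the 4 groups. PC3 libraries came from the TruSeq stranded mRNA kit and were counted without regard to strand, whereas VCaP libraries came from the TruSeq total RNA kit and were counted on the reverse strand. In any comparison between lines, the line cannot be told apart from kit, medium, dose of siRNA or strand setting. The labels do not say whether replicates were separate cultures, so the p-values measure the spread between these libraries, which may be technical. The knockdown was transient and, in PC3, partial, as the values of FOXA1 show.

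Epithelial cells hold to one another through E-cadherin at adherens junctions. In the epithelial-mesenchymal transition (EMT), transcription factors of the Snail, Twist and ZEB families repress the E-cadherin gene and other epithelial genes, and N-cadherin, vimentin and fibronectin become prominent. The ZEB factors and the miR-200 family repress each other, and OVOL factors restrain ZEB1 and favour the epithelial state. FOXA1 is a forkhead factor that opens chromatin in prostate luminal cells.

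Depth lay between 123140099 and 188226483 counts per library in PC3 and between 48187047 and 59839211 in VCaP. Mitochondrial genes held 13.1% to 15.7% of counts in PC3 and 3.02% to 4.69% in VCaP, where the share of nuclear protein-coding genes was 67.3% to 69.4% in NSI and 60.4% to 64.2% in siFOXA1. Replicate 2 stood furthest from the others in both PC3 groups, at a chi-square per degree of freedom of 59.9 to 141.4 against 41.7 (NSI) and 20.1 (siFOXA1) between replicates 1 and 3. The siRNA target was lower in both lines. FOXA1 was at 301.0, 242.1 and 262.7 CPM (counts scaled to a common library size with TMM factors over all 12 libraries) in PC3 NSI and at 167.6, 182.7 and 166.8 CPM in PC3 siFOXA1, and at 447.7, 458.4 and 539.2 CPM in VCaP NSI against 85.8, 73.7 and 83.5 CPM in VCaP siFOXA1. The groups did not overlap, and siFOXA1 means were 64.2% and 16.8% of NSI (log2 fold changes −0.65, SE 0.10, and −2.60, SE 0.09, with adjusted p 0.0022 and 1.84e-07 by edgeR's quasi-likelihood test). Prostate epithelial markers were checked in NSI: all 9 were at 1 CPM or more in VCaP, and 5 of 9 in PC3, where HOXB13 was highest at 357 CPM. KLK3, FOLH1 and TMPRSS2 were near 0 in PC3, so that line lacked several defining markers of luminal prostate cells. Of 9 matched markers of fibroblasts, endothelium and blood, 2 reached 1 CPM in each NSI group. Their summed level was 31.7 to 34.8 CPM in PC3 NSI and 48.8 to 55.1 CPM in PC3 siFOXA1, mostly CD68, and 12.3 to 18.0 CPM in VCaP NSI, where LUM led at 10.3 CPM, and 2.68 to 3.38 CPM in VCaP siFOXA1, where VWF led at 1.89 CPM. HBB was at 0 CPM in all 12 libraries, and DCN, CDH5, PTPRC and CD3E reached at most 0.179 CPM in any library. The part of these markers in the results below was not tested.

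With the non-targeting siRNA, PC3 expressed the mesenchymal side of the set and VCaP the epithelial side. A gene was called where its p from edgeR's quasi-likelihood test, adjusted by Benjamini-Hochberg over all genes tested, was under 0.05. All 10 genes were called between the lines in the 6 NSI libraries, 2 higher in VCaP (CDH1 and OVOL1) and 8 lower, while 87.0% of the 28132 genes tested were called (42.4% higher and 44.6% lower). Per unit of exon length, vimentin led in PC3 and E-cadherin in VCaP. Near-absence in VCaP of SNAI2, TWIST1, ZEB1 and ZEB2 stood against levels of 2.39 to 70.5 CPM in PC3.

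CDH1 encodes E-cadherin (ENSG00000039068.18_4, chromosome 16, 68771128 to 68869451, plus strand, GRCh37). Its level was 28.6, 21.3 and 26.9 CPM in PC3 NSI and 230.1, 230.1 and 237.5 CPM in VCaP NSI. Every VCaP library lay far above every PC3 library, a log2 difference of 3.19 (SE 0.13, adjusted p 7.60e-10). OVOL1, which encodes a zinc-finger factor of the epithelial state (ENSG00000172818.9_3, chromosome 11, 65554493 to 65564690, plus strand), was at 0.0202, 0.0428 and 0.0542 CPM in PC3 NSI and at 17.2, 14.5 and 16.9 CPM in VCaP NSI. It was close to silent in PC3, with 19.14 counts summed over 3 libraries, and the log2 difference was 8.63 (SE 0.22, adjusted p 2.36e-11).

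The structural mesenchymal genes ran the other way. VIM, which encodes the intermediate filament protein vimentin (ENSG00000026025.15_4, chromosome 10, 17271277 to 17279592, plus strand), was at 730.5, 762.7 and 728.7 CPM in PC3 NSI and at 0.414, 0.137 and 0.207 CPM in VCaP NSI. This was the widest gap of the set, a log2 difference of −11.50 (SE 0.25, adjusted p 7.25e-12). CDH2, which encodes N-cadherin (ENSG00000170558.8_3, chromosome 18, 25530930 to 25757410, minus strand), was at 46.1, 37.6 and 44.2 CPM in PC3 NSI and at 2.83, 1.74 and 2.17 CPM in VCaP NSI, a log2 difference of −4.24 (SE 0.17, adjusted p 6.22e-10). FN1, the gene of the matrix glycoprotein fibronectin (ENSG00000115414.18_4, chromosome 2, 216225163 to 216300895, minus strand), was at 193.7, 116.5 and 156.9 CPM in PC3 NSI and at 33.0, 27.7 and 22.8 CPM in VCaP NSI. Its log2 difference of −2.47 (SE 0.19, adjusted p 2.22e-07) was the smallest in size among the 10 genes, and VCaP kept a clear level of it.

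The repressors of CDH1 were all lower in VCaP. SNAI1, which encodes Snail (ENSG00000124216.3_2, chromosome 20, 48599536 to 48605423, plus strand), was at 3.15, 2.98 and 3.25 CPM in PC3 NSI and at 0.377, 0.293 and 0.276 CPM in VCaP NSI, a log2 difference of −3.30 (SE 0.21). SNAI2, which encodes Slug (ENSG00000019549.10_3, chromosome 8, 49830163 to 49834242, minus strand), was at 75.1, 62.0 and 74.4 CPM in PC3 NSI, and its VCaP NSI libraries held 2, 3 and 2 counts. Per exon length Slug was the most abundant of the 5 repressor transcripts in PC3 and at the edge of detection in VCaP. TWIST1, a basic helix-loop-helix factor (ENSG00000122691.12_3, chromosome 7, 19155091 to 19157295, minus strand), was at 11.7, 15.5 and 12.5 CPM in PC3 NSI and had 4 counts summed over the VCaP NSI libraries. ZEB1, a zinc-finger homeobox repressor (ENSG00000148516.21_3, chromosome 10, 31608054 to 31818741, plus strand), was at 30.0, 19.5 and 27.3 CPM in PC3 NSI and had 7 summed counts in VCaP NSI. Its relative ZEB2 (ENSG00000169554.19_4, chromosome 2, 145141648 to 145277965, minus strand) was at 2.37, 2.26 and 2.55 CPM in PC3 NSI and had 11 summed counts in VCaP NSI. The fitted log2 differences of SNAI2, TWIST1, ZEB1 and ZEB2 were −10.63, −8.99, −9.17 and −5.11, and their size depends on the small prior count of the fit. Adjusted p of these 5 repressors ranged from 4.74e-12 to 3.37e-08. The median log2 difference over all genes was −0.07, and it moved to 0.22 with upper-quartile factors, to 0.15 with scaling to nuclear protein-coding genes and to −0.17 with no filter. Every member kept its direction and its call under all of these.

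**Figure D1:**
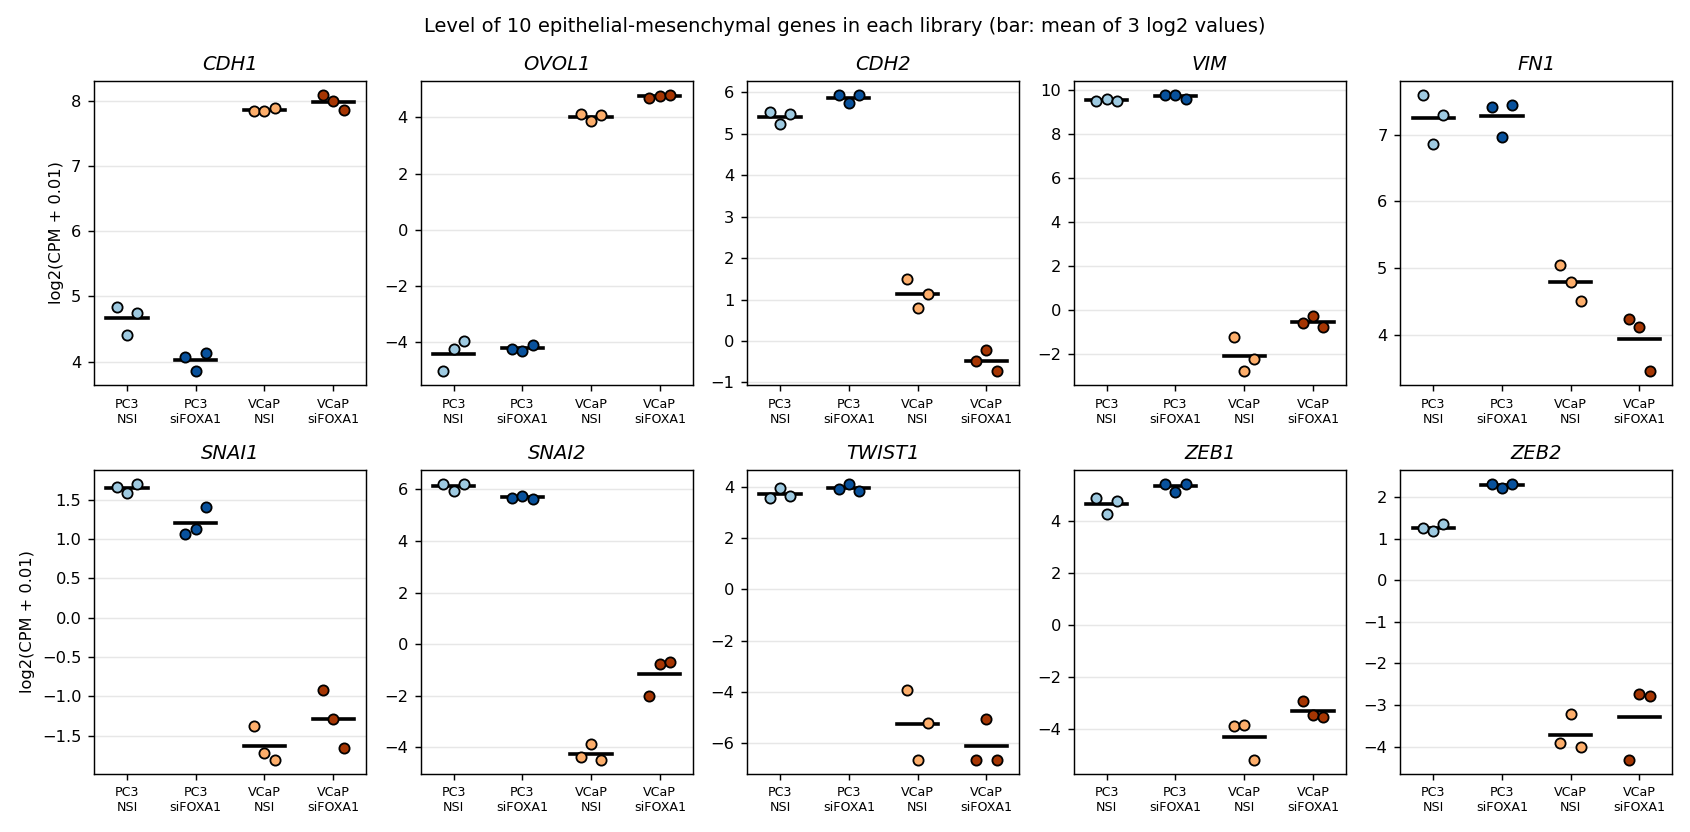
Each panel plots 1 gene as log2(CPM + 0.01), with a point for each of the 3 libraries of PC3 NSI, PC3 siFOXA1, VCaP NSI and VCaP siFOXA1 and a bar at the mean of their log2 values. The vertical scale differs between panels, and the lowest TWIST1 points are libraries with 0 counts. CDH1 and OVOL1 lie higher in VCaP and the other 8 genes lie higher in PC3.

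Levels of different genes were set side by side only after division by exon length, as FPKM (CPM divided by the exon length in kilobases). In PC3 NSI the order was VIM at 396 ± 10.2 FPKM (SD, n = 3), SNAI2 at 29.0 ± 3.02, FN1 at 17.1 ± 4.24, CDH2 at 9.59 ± 0.998, TWIST1 at 7.96 ± 1.20, CDH1 at 5.14 ± 0.767, ZEB1 at 3.98 ± 0.844, SNAI1 at 1.85 ± 0.0815, ZEB2 at 0.179 ± 0.0111 and OVOL1 at 0.0116 ± 0.00516 FPKM. The ranges of CDH2 and TWIST1 overlapped, as did those of CDH1 and ZEB1, so these neighbours were not separated. In VCaP NSI the order was CDH1 at 46.7 ± 0.858 FPKM (SD, n = 3), OVOL1 at 4.82 ± 0.442, FN1 at 3.06 ± 0.562, CDH2 at 0.505 ± 0.123, SNAI1 at 0.187 ± 0.0321 and VIM at 0.135 ± 0.0773 FPKM, the last pair overlapping. SNAI2, TWIST1, ZEB1 and ZEB2 followed between 0.0179 and 0.0051 FPKM, each overlapping the next. The transcript order of the lines thus began with a mesenchymal filament gene in PC3 and with the junction gene CDH1 in VCaP.

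In PC3, lowering FOXA1 went with less CDH1 and more CDH2, ZEB1 and ZEB2, while SNAI1 and SNAI2 also fell. Of 9 members tested, 6 were called by edgeR's quasi-likelihood test, 3 higher and 3 lower, beside 27.0% of the 26435 genes tested (15.0% higher and 12.1% lower). VIM, FN1 and TWIST1 were not called, and OVOL1 was under the filter on low counts (about 0.0633 CPM in at least 3 PC3 libraries). The called changes of the members lay between −0.66 and 1.01 on the log2 scale. Without NSI replicate 2 the members called numbered 6, without siFOXA1 replicate 2 they numbered 5, and without siFOXA1 replicate 1 they numbered 3. In RNA from bulk cultures, fewer cells expressing a gene and less RNA per cell cannot be told apart.

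E-cadherin and N-cadherin transcripts moved in opposite directions. CDH1 was at 28.6, 21.3 and 26.9 CPM in NSI and at 16.8, 14.5 and 17.6 CPM in siFOXA1. The groups did not overlap, the siFOXA1 mean was 63.7% of NSI, and the log2 fold change was −0.66 (SE 0.12, adjusted p 0.0051). CDH2 was at 46.1, 37.6 and 44.2 CPM in NSI and at 60.9, 53.4 and 61.2 CPM in siFOXA1. All 3 siFOXA1 libraries were above all 3 NSI libraries, with a log2 change of 0.45 (SE 0.10, adjusted p 0.0104). The CDH2 call was lost without siFOXA1 replicate 1 (0.42, adjusted p 0.0538) and without siFOXA1 replicate 3 (0.39, adjusted p 0.0634), while adjusted p lay between 0.00026 and 0.0634 in 16 alternatives. Library for library, the ratio of CDH1 to CDH2 per exon length was 0.555, 0.506 and 0.544 in NSI and 0.247, 0.242 and 0.257 in siFOXA1.

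ZEB2 showed the clearest rise of the set in PC3, from 2.37, 2.26 and 2.55 CPM in NSI to 4.95, 4.62 and 4.99 CPM in siFOXA1. The 3 siFOXA1 libraries lay close together and well above NSI, at 203% of the NSI mean, and the log2 fold change was 1.01 (SE 0.11, adjusted p 0.00042). ZEB1 was at 30.0, 19.5 and 27.3 CPM in NSI and at 42.8, 35.0 and 43.5 CPM in siFOXA1. These groups did not overlap either, replicate 2 was lowest in both, and the log2 fold change was 0.65 (SE 0.15, adjusted p 0.0139). The ZEB1 call was lost without siFOXA1 replicate 1 (0.61, adjusted p 0.0576) and without siFOXA1 replicate 3 (0.57, adjusted p 0.066), in a range from 8.34e-05 to 0.066 over 15 alternatives. ZEB1, ZEB2 and CDH2 were the members called higher in PC3, and the 250 bases before their most upstream RefSeq start are shown because promoters of genes that move together can be read for the motifs of the factors studied here. Capitals mark matches, on either strand, to CANNTG, the E-box bound by Snail, Twist and ZEB proteins.
ZEB1 (GRCh38.p14, chr10:31318167-31318416, plus strand): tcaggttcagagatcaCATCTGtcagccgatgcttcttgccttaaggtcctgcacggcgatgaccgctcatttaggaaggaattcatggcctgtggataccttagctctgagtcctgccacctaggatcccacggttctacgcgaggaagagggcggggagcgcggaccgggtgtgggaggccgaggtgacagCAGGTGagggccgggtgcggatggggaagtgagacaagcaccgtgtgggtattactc
ZEB2 (GRCh38.p14, chr2:144520120-144520369, minus strand): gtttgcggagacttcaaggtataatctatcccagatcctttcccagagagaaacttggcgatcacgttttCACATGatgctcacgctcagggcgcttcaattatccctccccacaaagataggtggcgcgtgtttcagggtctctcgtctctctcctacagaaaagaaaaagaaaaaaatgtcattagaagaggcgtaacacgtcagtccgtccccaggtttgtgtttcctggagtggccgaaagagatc
CDH2 (GRCh38.p14, chr18:28177131-28177380, minus strand): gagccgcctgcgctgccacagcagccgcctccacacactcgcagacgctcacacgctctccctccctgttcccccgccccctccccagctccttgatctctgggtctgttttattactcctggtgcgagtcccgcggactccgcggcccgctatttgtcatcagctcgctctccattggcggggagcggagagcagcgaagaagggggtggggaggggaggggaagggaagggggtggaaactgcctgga
RefSeq promoters were found for 5 of the 10 members (CDH2, VIM, FN1, ZEB1 and ZEB2). The ZEB1 window held CAGGTG, the E-box form preferred by ZEB proteins, starting 57 bases before the start of transcription, and CATCTG at 234 bases. The ZEB2 window held CACATG at 180 bases. CDH2, VIM and FN1 had 0 matches, and 0 of the 5 windows held the forkhead motif TGTTTAC or TGTTTGC on either strand. Among 27326 RefSeq promoter windows of the same length, 62.2% held CANNTG, 17.5% held CAGGTG, which is 1 form of CANNTG, and 6.10% held a forkhead match. An E-box in 2 of 5 windows is therefore no more than most promoters have, and a missing match says only that these letters are not in this window.

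SNAI2 and SNAI1 were lower with siFOXA1 in PC3, and SNAI3, the other Snail gene, was not called (log2 fold change 0.06, adjusted p 0.88). SNAI2 was at 75.1, 62.0 and 74.4 CPM in NSI and at 51.4, 53.9 and 49.97 CPM in siFOXA1. The groups did not overlap and the siFOXA1 mean was 73.4% of NSI (log2 fold change −0.45, SE 0.09, adjusted p 0.0089). SNAI1 was at 3.15, 2.98 and 3.25 CPM in NSI and at 2.09, 2.17 and 2.65 CPM in siFOXA1. All siFOXA1 libraries were lower, with log2 fold change −0.45 (SE 0.13, adjusted p 0.0365). That call was lost with upper-quartile factors (adjusted p 0.0527), with library size alone (0.0602) and without NSI replicate 1 (0.079), NSI replicate 3 (0.114), replicate 1 of siFOXA1 (0.156) or replicate 2 of siFOXA1 (0.0709). Adjusted p lay between 0.0074 and 0.156 in 15 alternatives, and the log2 fold change stayed between −0.59 and −0.38. TWIST1 was at 11.7, 15.5 and 12.5 CPM in NSI and at 15.0, 17.4 and 14.2 CPM in siFOXA1. These groups overlapped, because NSI replicate 2 lay above 2 of the siFOXA1 libraries, and the log2 fold change, 0.21 with SE 0.14, was not called (adjusted p 0.30).

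The structural genes VIM and FN1 were not called in PC3. VIM was at 730.5, 762.7 and 728.7 CPM in NSI and at 858.6, 876.2 and 773.0 CPM in siFOXA1, with log2 fold change 0.16 (SE 0.09, adjusted p 0.21). The siFOXA1 libraries lay above NSI without overlap, but by less than the fit needed for a call. FN1 was at 193.7, 116.5 and 156.9 CPM in NSI and at 169.8, 125.6 and 174.7 CPM in siFOXA1. Replicate 2 was lowest in both groups, the groups overlapped widely, and the log2 fold change was 0.00 (SE 0.18, adjusted p 1.00). OVOL1 was near silent in both PC3 groups, at 19.14 summed counts in NSI and 20.43 in siFOXA1, and was not tested.

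In VCaP the same siRNA went with less CDH2 and FN1, more OVOL1, and more VIM and SNAI2 from very low levels, while CDH1 was not called. Of 7 members tested, 5 were called by edgeR's quasi-likelihood test, 3 higher and 2 lower, beside 45.8% of the 22925 genes tested (22.5% higher and 23.3% lower). TWIST1, ZEB1 and ZEB2 were under the filter. SNAI2 passed the filter through its siFOXA1 libraries, since 0 of 3 NSI libraries and 3 of 3 siFOXA1 libraries were above about 0.197 CPM, so its entry into the count of calls is not support for a direction. VIM had 2 of 3 NSI libraries and 3 of 3 siFOXA1 libraries above that level. It too needed its siFOXA1 libraries to pass, and the same limit holds for its entry.

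CDH1, already abundant in VCaP, was at 230.1, 230.1 and 237.5 CPM in NSI and at 272.6, 256.7 and 231.6 CPM in siFOXA1. The groups overlapped through siFOXA1 replicate 3, and the log2 fold change was 0.09 (SE 0.07, adjusted p 0.33). CDH2 was at 2.83, 1.74 and 2.17 CPM in NSI and at 0.700, 0.856 and 0.593 CPM in siFOXA1. All siFOXA1 libraries were lower, at 31.9% of the NSI mean, with log2 fold change −1.68 (SE 0.22, adjusted p 0.00025). FN1 was at 33.0, 27.7 and 22.8 CPM in NSI and at 18.7, 17.3 and 10.9 CPM in siFOXA1. These groups did not overlap, replicate 3 was lowest in both, and the log2 fold change was −0.86 (SE 0.20, adjusted p 0.0055). OVOL1 was at 17.2, 14.5 and 16.9 CPM in NSI and at 25.9, 27.4 and 27.99 CPM in siFOXA1. It rose to 167% of the NSI mean with tight groups (log2 fold change 0.71, SE 0.08, adjusted p 7.90e-05).

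SNAI2 held 2, 3 and 2 counts in the VCaP NSI libraries and 12, 29 and 32.5 counts in siFOXA1. The rounded sums were 7 and 73, a ratio of 10.8 after scaling (95% exact interval 4.97 to 27.7, for counting error only), and the fitted log2 fold change was 3.37 (SE 0.52, adjusted p 0.0006). Even so, siFOXA1 VCaP cells had 0.477 ± 0.206 CPM of SNAI2 (SD, n = 3), against 51.8 ± 2.01 CPM in PC3 siFOXA1 and 70.5 ± 7.34 CPM in PC3 NSI. VIM was likewise low, at 0.414, 0.137 and 0.207 CPM in NSI and at 0.660, 0.836 and 0.574 CPM in siFOXA1. The siFOXA1 libraries lay above NSI, with 105 against 41 summed counts, a log2 fold change of 1.41 (SE 0.35) and an adjusted p of 0.0087. SNAI1 was at 0.377, 0.293 and 0.276 CPM in NSI and at 0.520, 0.398 and 0.306 CPM in siFOXA1. Its groups overlapped and it was not called (log2 fold change 0.34, SE 0.27, adjusted p 0.34). SNAI1 too rested on few counts, 51 and 62 summed, a scaled ratio of 1.26 (95% exact interval 0.853 to 1.86, for counting error only).

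For the 3 untested factors in VCaP, summed counts in NSI and siFOXA1 were 4 and 1 for TWIST1, 7 and 14 for ZEB1 and 11 and 16 for ZEB2. The 95% exact intervals of the scaled ratios, for counting error only, were 0.0052 to 2.61, 0.781 to 6.05 and 0.655 to 3.58. Each interval includes no change, so a difference was not detected at this depth, and the wide intervals also include sizeable changes. ZEB1 held 3, 3 and 1 counts in the NSI libraries and 6, 4 and 4 in siFOXA1, groups that did not overlap. With no filter, the fit gave log2 fold changes of −1.63 for TWIST1 (adjusted p 0.52), 1.01 for ZEB1 (0.34) and 0.57 for ZEB2 (0.54), none of them called.

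**Figure D2:**
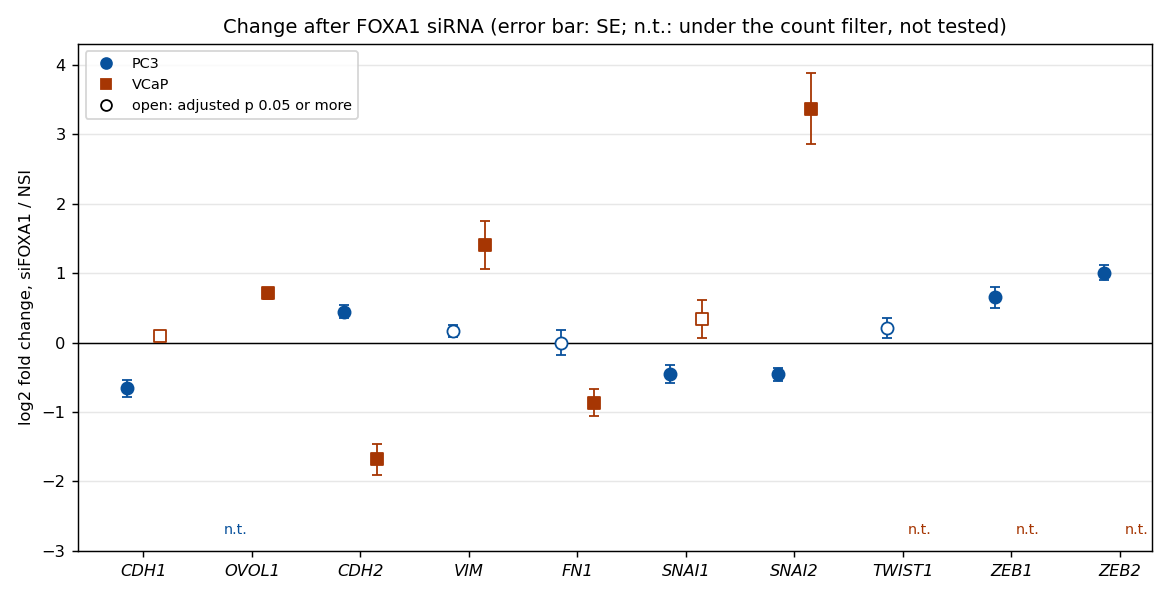
The vertical axis is the log2 fold change of siFOXA1 over NSI for each of the 10 genes, with circles for PC3 and squares for VCaP, error bars of 1 SE, and open symbols where the adjusted p was 0.05 or more. CDH2 lies at 0.45 in PC3 and −1.68 in VCaP, SNAI2 at −0.45 and 3.37, and genes under the count filter are marked as not tested.

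Whether the response differed between the lines was tested as an interaction over all 12 libraries, the VCaP change minus the PC3 change. Of 10 members, 4 were called, 3 higher in VCaP (SNAI2, VIM and CDH1) and 1 lower (CDH2), beside 22.2% of the 30425 genes tested (11.3% higher and 11.0% lower). Among all genes called, 3427 were higher and 3333 lower, a split that became 2643 and 3880 with library size alone as scaling. The difference for SNAI2 was 3.88 (SE 0.46, adjusted p 2.20e-05), the sum of a fall in PC3 and a rise from a few counts in VCaP. For CDH2 it was −2.11 (SE 0.23, adjusted p 1.03e-05), with N-cadherin transcripts rising in PC3 and falling in VCaP. The VIM difference was 1.27 (SE 0.31, adjusted p 0.0083) and the CDH1 difference was 0.78 (SE 0.16, adjusted p 0.0021). FN1 and SNAI1 missed the threshold by little, at −0.84 (adjusted p 0.0552) and 0.81 (adjusted p 0.0703), each with SE 0.30. The 4 remaining members had differences of −1.96 (TWIST1), 0.41 (ZEB1), −0.40 (ZEB2) and 0.62 (OVOL1) with adjusted p from 0.35 to 0.76, and each was near 0 counts in 1 line. FOXA1 itself fell further in VCaP, by −1.93 (SE 0.15, adjusted p 3.12e-07), so the responses of the lines were measured at different depths of knockdown.

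The balance of the cadherins was summarised within each library as log2 of CDH1 over CDH2 per exon length. In PC3 it was −0.85, −0.98 and −0.88 in NSI and −2.02, −2.05 and −1.96 in siFOXA1. N-cadherin transcripts thus exceeded E-cadherin transcripts in every PC3 library, and more so with siFOXA1, by a difference of −1.10. In VCaP the ratio was 6.19, 6.89 and 6.61 in NSI and 8.44, 8.07 and 8.45 in siFOXA1. E-cadherin dominated every VCaP library and the ratio was higher with siFOXA1, by 1.76. By a two-sided exact permutation test p was 0.1 in both lines, and 20 arrangements of 3 against 3 cannot go lower. Being a ratio within a library, this value does not depend on the scaling between libraries.

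**Figure D3:**
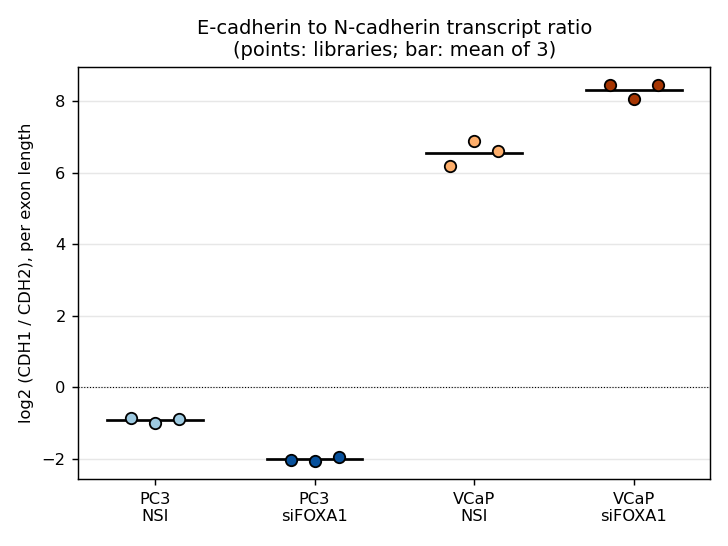
The vertical axis is log2 of the CDH1 to CDH2 ratio per exon length, with a point for each library, a bar at the mean of 3 and a dotted line at equal levels. PC3 lies below the line at −0.90 ± 0.07 (SD) in NSI and −2.01 ± 0.05 in siFOXA1, and VCaP lies above it at 6.56 ± 0.35 and 8.32 ± 0.22.

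The VIM counts share sequence with other annotated genes. Of its exon length, 52.6% is overlapped on the opposite strand by RP11-124N14.3 and RP11-124N14.4, and the PC3 counts, made without strand, split such fragments among the genes. In PC3 NSI those genes held counts equal to 27.6% and 20.1% of the VIM count, and in PC3 siFOXA1 29.6% and 19.4%, so the mean shares were close in the 2 groups. In VCaP, counted by strand, RP11-124N14.4 held 0, 1 and 2 counts in NSI and 19, 15 and 16.5 counts in siFOXA1. It was higher in all siFOXA1 libraries, as VIM was. The counts of overlapping opposite-strand genes were also added to the members, an alternative chosen after seeing the data. With this, the VIM log2 fold change in PC3 was 0.18 with adjusted p 0.19 by edgeR's quasi-likelihood test. In VCaP, counted by strand, those counts had not been split from VIM. The sum there joins VIM with its opposite-strand genes and is not a corrected VIM value. It gave 1.88 in VCaP with adjusted p 0.00062, and a difference between lines of 1.72 with adjusted p 0.0003. Opposite-strand overlap covered 31.1% of the exon length of OVOL1, 4.26% of CDH1, 3.06% of CDH2, 2.67% of ZEB2 and 0% of the other 5 members, and adding those counts changed no call of a member.

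**Figure D4:**
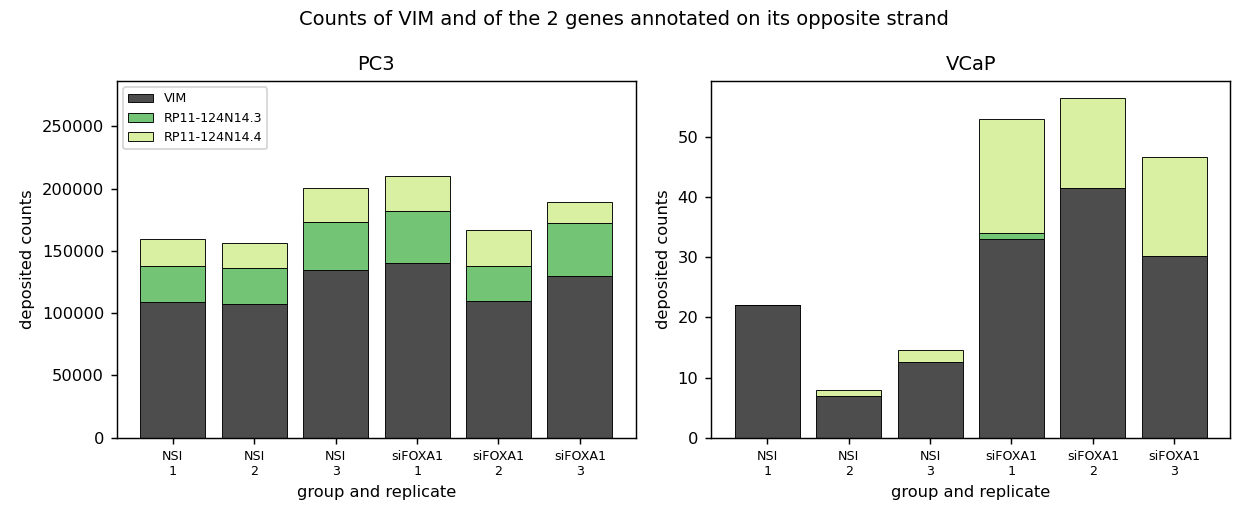
Stacked bars give the deposited counts of VIM and of the 2 genes annotated on its opposite strand in each library of PC3 (left) and VCaP (right), on very different vertical scales. RP11-124N14.3 and RP11-124N14.4 take a visible part of the bar in all 6 PC3 libraries, and RP11-124N14.4 is visible in the 3 VCaP siFOXA1 libraries.

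Other genes of the pathway were read from lists and are described by their counts of calls and their median, beside a median of 0.02 over all genes tested in each line and the shares of calls given above. The lists were chosen with earlier results of these data known. Their counts and medians, here and in the next paragraphs, are therefore descriptions and not independent support for a direction. In PC3, mesenchymal markers leaned upward: of 30 tested, 14 were called higher and 1 lower, with a median log2 fold change of 0.36. Between 11 and 20 were called higher over the alternatives, the fewest without siFOXA1 replicate 1 or siFOXA1 replicate 3, and 0 were called lower without NSI replicate 2, NSI replicate 3 or any 1 siFOXA1 replicate. The collagen gene COL3A1 rose from 0.804 ± 0.113 to 3.96 ± 0.316 CPM (SD, n = 3 each, log2 fold change 2.29) and the matrix gene POSTN from 0.895 ± 0.132 to 3.15 ± 0.155 CPM (log2 fold change 1.80). In VCaP the same list was divided, with 7 of 21 higher, 7 lower and a median of −0.44. Of these, S100A4, called higher, passed the filter through siFOXA1 (at most 0.121 CPM in NSI, at least 0.737 CPM in siFOXA1). PDGFRB, called lower, passed it through NSI (at most 0.120 CPM in siFOXA1). These calls are not support for a direction. THBS1, which encodes thrombospondin 1, rose from 1042 ± 89.8 to 6923 ± 1200.3 CPM (SD, n = 3 each, log2 fold change 2.70), and the hyaluronan receptor gene CD44 from 5.28 ± 0.767 to 24.0 ± 0.782 CPM (log2 fold change 2.15). THBS1 was already higher in VCaP NSI than in PC3 NSI, where it was at 36.9 CPM. Most of the list ran the other way between the NSI groups, with 21 of 30 lower in VCaP and 4 higher. LOX and TNC, genes of a collagen-crosslinking enzyme and of the matrix protein tenascin C, had log2 fold changes of −1.74 and −1.54.

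Epithelial transcription and splicing factors fell more often than they rose in PC3, with 6 of 13 lower, 1 higher and a median log2 fold change of −0.57. ESRP2, a regulator of epithelial splicing, went from 41.2 ± 6.49 to 21.7 ± 1.48 CPM (SD, n = 3 each, log2 fold change −0.94), and GRHL1, a grainyhead factor, had a log2 fold change of −0.93. EHF, an epithelial ETS factor, was the 1 that rose (1.65). In VCaP 5 of 12 rose and 5 fell, at a median of 0.14. GRHL3, among those that rose, passed the filter through siFOXA1 (0.103 to 0.301 CPM in NSI), so its call is not support for a direction. The Krüppel-like factor genes KLF4 and KLF5 went in opposite directions there (1.37 and −0.72), CDX2 rose (0.92) and ESRP1 fell (−0.81). In VCaP 3 were called higher with library size alone as scaling and also without NSI replicate 3, siFOXA1 replicate 1 or siFOXA1 replicate 2. Epithelial markers were divided in both lines, with 4 higher and 3 lower of 19 in PC3 and 6 and 6 of 18 in VCaP. MUC1 rose (1.67) and ST14 and KRT18 fell (−0.68 and −0.50) in PC3, KRT19 and CLDN4 rose (0.98 and 0.73) and DSP fell (−0.68) in VCaP, and the laminin gene LAMA3 rose in PC3 (0.97) and fell in VCaP (−0.79). The KRT18 call in PC3 was lost without siFOXA1 replicate 1 (adjusted p 0.0819, in a range from 0.00039 to 0.0819 over 15 alternatives).

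Of the other EMT factors, 3 of 17 rose and 5 fell in PC3, at a median of −0.03, and 4 of 13 rose and 6 fell in VCaP, at a median of 0.08. In VCaP FOXQ1, called lower, passed the filter through NSI (at most 0.153 CPM in siFOXA1). FOXC1, called higher there, passed it through siFOXA1 (0.0862 to 0.215 CPM in NSI). These calls are not support for a direction. ID3, an inhibitor of basic helix-loop-helix factors, rose in PC3 (0.96), as did TCF4 (0.43, adjusted p 0.0486), a call lost in 9 of 15 alternatives. FOXQ1 and PRRX2 fell there (−1.44 and −1.27). In VCaP ID1 rose (1.50) and so did ETS1 (0.58), which lost its call without replicate 1 or 3 of NSI or replicate 2 of siFOXA1, while SOX4 fell (−0.62). Without PC3 siFOXA1 replicate 1, 1 factor was called higher in PC3, and without VCaP NSI replicate 3 or VCaP siFOXA1 replicate 2, 2 were called higher in VCaP.

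Among the other cadherins, catenins and nectins, 2 of 14 rose and 0 fell in PC3, at a median of 0.02, by edgeR's quasi-likelihood test. P-cadherin, encoded by CDH3, rose from 45.3 ± 3.33 CPM in PC3 NSI to 105.2 ± 7.35 CPM in siFOXA1 (SD, n = 3 each, log2 fold change 1.20, adjusted p 6.89e-05) and in VCaP from 7.46 ± 0.856 to 11.5 ± 2.16 CPM (0.59, adjusted p 0.0092). CDH6 rose in PC3 (0.56), a call lost in 8 of 15 alternatives. In PC3 1 gene of the list was called higher with no filter and without NSI replicate 3 or any 1 siFOXA1 replicate, and 2 were called lower without NSI replicate 2. In VCaP 3 of 11 rose and 5 fell, at a median of 0.09. JUP, which encodes the junction protein plakoglobin, rose from 155 ± 14.0 to 319 ± 18.5 CPM (SD, n = 3 each, 1.00), and the cadherin gene CDH4 and the nectin gene NECTIN3 fell (−2.01 and −1.45). Interferon-stimulated genes moved beside these groups in PC3, where 10 of 10 were called higher at a median of 3.35, against 6 of 9 higher and 1 lower at a median of 0.88 in VCaP. OAS2, called higher in VCaP, passed the filter there through siFOXA1 (at most 0.113 CPM in NSI), so that call is not support for a direction. The part of interferon-stimulated genes in the changes of the members was not tested.

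**Figure D5:**
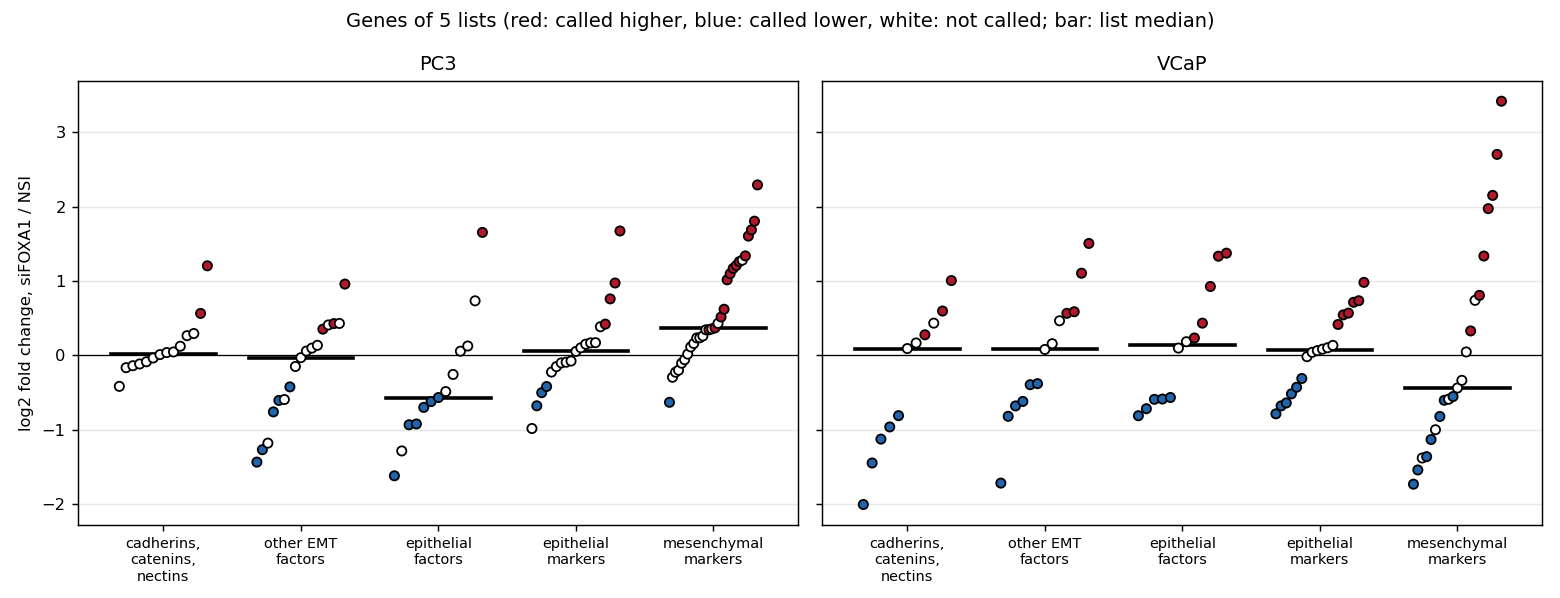
Each point is the log2 fold change of siFOXA1 over NSI for 1 tested gene of 5 lists, in PC3 (left) and VCaP (right), coloured red where called higher, blue where called lower and white where not called, with a bar at the list's median. The mesenchymal marker medians are 0.36 in PC3 and −0.44 in VCaP, and the epithelial factor median in PC3 is −0.57.

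Genes whose pattern over the 12 libraries was most like that of a member were read for CDH1, FN1 and ZEB1. The measure was Pearson's r of log2(CPM + 0.5) among 9869 genes averaging 5 CPM or more in each line. Genes near silent in 1 line were thus not compared. The nearest to CDH1 were DYRK1A (r = 0.999), MAPK8 (0.998) and BMPR1B (0.998). For FN1 they were GNE (0.996), NRP1 (0.995) and CD109 (0.994), and for ZEB1 they were ITGB1, EHBP1L1 and STK38L, each at 0.999. The 12 points fall into 2 clusters by line, which also differ in kit and strand setting, so these values describe that contrast more than the response to siFOXA1.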

How the data were processed

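RNA sequencing of 12 libraries (PC3 and VCaP, NSI and siFOXA1, 3 replicates each) was analysed from 1 deposited table each. The authors' values are expected counts per gene, per the file headers, from featureCounts run on exons of GENCODE v28lift37 (basic set, GRCh37), dividing multi-mapping and multi-overlapping fragments among genes and requiring both ends to map. PC3 counts ignored strand and VCaP counts were reverse-stranded, per the file headers. The submitters' processing notes also list STAR 2.7.3a and Subread 2.0.0. Groups and replicate numbers came from the sample titles.

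Counts were rounded, filtered with filterByExpr (minimum count 10), scaled by TMM factors and tested two-sided with edgeR 4.0.16 in R 4.3.3 (quasi-likelihood test, Benjamini-Hochberg adjustment over all genes tested, call at adjusted p under 0.05). Each line was fitted on its 6 libraries, the interaction on all 12 and NSI between lines on the 6 NSI libraries. The standard error is the log2 fold change divided by the square root of F. CPM and FPKM used TMM factors over all 12 libraries, and FPKM the deposited exon length. At these depths the filter's minimum is about 0.0633 CPM in PC3 and 0.197 CPM in VCaP. Replicates differed by a chi-square per degree of freedom of 9.80 to 141.4, so no library was a copy, and the biological coefficient of variation was 9.90% to 15.0%. On simulated data with 200 genes changed 2-fold, the fit recovered 88% in PC3, 94.5% in VCaP, 62% for the interaction and 89% for NSI between lines. Of the calls, 4.86%, 6.44%, 3.88% and 5.32% were false, in that order. The changed genes, as many raised as lowered, were drawn above a minimum mean count and all genes had a common spread. In the deposited data 22.2% to 87.0% of the genes tested were called, depending on the comparison. The simulated rates therefore do not cover members with few counts, changes smaller than 2-fold or comparisons in which far more genes change. Members and gene lists were chosen with earlier results of these data known. The symbols AFDN, MIR200CHG, CD24 and PECAM1 of the lists were not matched. All members were named, and of each list up to 2 genes with the largest rise and 2 with the largest fall among calls averaging 1 CPM or more, per line. Some genes that this rule or the marker list took are not reported here. Likeness was read for CDH1, FN1 and ZEB1. Promoters are from RefSeq on GRCh38.p14. Alternatives used DESeq2 1.42.0, limma 3.58.1, other scalings and filters, a replicate block and fits without each library.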

Additional observations from a re-analysis of the deposited data

Results flagged for a closer look

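By the interaction over all 12 libraries (edgeR's quasi-likelihood test), the siFOXA1 effect in VCaP minus that in PC3 was 3.8811 for SNAI2, 1.269 for VIM and 0.7757 for CDH1 on the log2 scale. It was −2.1063 for CDH2 and −1.9322 for the siRNA target FOXA1. The lines differed in kit, siRNA dose, medium and strand setting, which cannot be told apart from the line.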

How the results depend on the processing

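Over 608 alternative values for the members, 580 kept their direction and their side of the threshold, 10 lost a call, 12 gained one and 6 changed sign. All 6 were FN1 in PC3, at −0.0241 with DESeq2 size factors, −0.0241 with DESeq2, −0.0356 with no filter, and −0.16, −0.0575 and −0.11 without NSI replicate 2, siFOXA1 replicate 1 or siFOXA1 replicate 3 (−0.16 to 0.17 with any 1 library left out), and the cause was not tested. In PC3, 7149 genes were called, against 2464 (1715 higher, 749 lower) with a minimum log2 fold change of 1 and 3945 to 7592 with 1 library left out, the count being 4602 without NSI replicate 3 and 3945 without siFOXA1 replicate 1. Members called in PC3 ranged from 3 (1 higher, 2 lower, without siFOXA1 replicate 1) to 6 with 1 library left out. The same minimum of 1 left 2852 calls in VCaP (1763 higher, 1089 lower) and 3368 in the interaction (1656 higher, 1712 lower). The PC3 calls of CDH1, SNAI2 and ZEB2 and the 5 VCaP calls of members were kept in all alternatives run. The FN1 interaction was called in 9 of its alternatives, at adjusted p down to 0.00012. NSI and siFOXA1 libraries share replicate numbers, but the labels do not say what a number marks. Same-numbered deviations correlated across genes at 0.15, 0.31 and 0.0948 in PC3 and 0.0639, 0.0364 and 0.28 in VCaP (0.66, 0.72 and 0.30, and 0.18, −0.05 and 0.41, among genes of at least 5 CPM), so the numbers were not taken as pairs. In neither line did every library correlate best with its own number. With the replicate block, 11297 genes were called in PC3 (5734 higher, 5563 lower), TWIST1 was called there (0.22, adjusted p 0.0401), and FN1 (−0.87, adjusted p 0.00012) and SNAI1 (0.81, adjusted p 0.0418) were called in the interaction. Depth limits SNAI1, SNAI2, TWIST1, ZEB1, ZEB2 and VIM in VCaP and OVOL1 in PC3, which rest on few counts.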
